A study of Rattus norvegicus with 22 samples.

Results

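The genes described here encode 10 receptors for pituitary and peptide hormones, namely Lhcgr, Fshr, Tshr, Gnrhr, Prlr, Ghr, Lepr, Oxtr, Avpr1a and Insr. They were chosen by name from the raw read count table, where each matched 1 row, so that they make up 10 of 32883 rows. RNA was sequenced from the ventral cervical spinal cord (C3-C6) of 22 young-adult Sprague-Dawley rats aged 3–4 months. The study asked how removal of the gonads alters the transcriptome of this tissue in each sex. The groups were 5 intact males, 5 castrated males (GDX), 6 intact females and 6 ovariectomized females (OVX). Tissue was taken 2 weeks after surgery, following perfusion with saline, and each library came from 1 rat. For surgery, gonadectomized rats received buprenorphine for pain and isoflurane anesthesia. Isoflurane was also given to the rats before perfusion. The sources used here describe no sham surgery in the intact rats, so that loss of the gonads and the surgery itself cannot be told apart.

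The anterior pituitary secretes luteinizing hormone, follicle-stimulating hormone, thyroid-stimulating hormone, prolactin and growth hormone, and the gonads feed back on several of them. Gonadectomy therefore alters circulating pituitary hormones as well as sex steroids, and a receptor in a tissue sets whether that tissue can respond. Leptin from fat, insulin from the pancreas, and oxytocin and vasopressin from the hypothalamus also act through receptors on their target cells.

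Libraries held 12371756 to 17571887 reads assigned to genes. Intact males had totals of 13008232 to 15558910 and GDX males 14632278 to 16955037. Totals of intact females ran from 13374274 to 17530586, and those of OVX females from 12371756 to 17571887. Levels are given in CPM, the reads of a gene divided by the library's size and multiplied by 1e6, with library sizes scaled by the trimmed mean of M values (TMM). The threshold for expression was 1 CPM of the unscaled total, the level the study used. CPM was not divided by transcript length, so levels are compared between rats and not between genes. A gene named as the most abundant of a marker list, or as leading it, had the highest CPM without that division. The study's mapping table lists each library under a shorter or longer average input fragment size. All GDX and OVX libraries, intact males 2 and 5 and intact females 1 and 4 were of the short class (15 libraries), and the other 7 libraries, all from intact rats, were of the long class.

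Expression separated the receptors into 3 sets. Insr, Ghr, Avpr1a and Lepr reached 1 CPM in 22 of 22 libraries. Fshr, Prlr and Tshr had at least 1 read in 22 of 22 libraries, and of these only Tshr reached 1 CPM, in 2 libraries (intact male 1 and intact female 1). Lhcgr, Oxtr and Gnrhr had reads in 6, 9 and 2 libraries. Thus 4 of 10 receptors were expressed at the threshold by their median over libraries, against 7 of 10 when 1 read was taken as sufficient.

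The receptors for the glycoprotein hormones were at or near the limit of detection. Lhcgr (ENSRNOG00000016712), the receptor for luteinizing hormone and chorionic gonadotropin, had 13 reads over 22 libraries. Intact females had 6 of these reads, 5 of them from intact female 1, while OVX females had 4 and intact males 3. The 5 GDX libraries held 0 reads, which allows up to 3 reads over the group, or 0.0385 CPM. Such limits cover counting error only. A difference in Lhcgr between groups was not detectable at this depth.

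Gnrhr (ENSRNOG00000002011), the receptor for gonadotropin-releasing hormone, had 4 reads in all. Intact male 3 and intact female 1 held 2 each. The GDX and OVX libraries held 0 reads, which allows up to 0.0385 CPM over the GDX group and 0.0336 CPM over the OVX group. Among the 22 libraries, intact female 1 had the highest read counts of Lhcgr and Tshr and shared the highest of Gnrhr.

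Fshr (ENSRNOG00000016783), the receptor for follicle-stimulating hormone, was counted at 131 reads. Intact males 1, 2, 3, 5 and 6 had 3, 1, 9, 7 and 14 reads, and GDX males 1, 2, 4, 5 and 6 had 3, 2, 6, 5 and 6. The lowest, median and highest counts were 4, 7 and 13 in intact females, and 1, 5 and 11 in OVX females. The 4 groups overlapped, and the highest and lowest counts among males both came from intact rats.

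Tshr (ENSRNOG00000003972), the receptor for thyroid-stimulating hormone, was counted at 189 reads. Males averaged 0.685 ± 0.327 CPM (intact) and 0.380 ± 0.279 CPM (GDX; SD, n = 5 each), and females 0.669 ± 0.327 CPM (intact) and 0.518 ± 0.200 CPM (OVX; n = 6 each). Intact males 1, 2, 3, 5 and 6 had 17, 6, 5, 12 and 10 reads, against 3, 13, 9, 3 and 2 in GDX males 1, 2, 4, 5 and 6. GDX males 2 and 4 lay among the intact males and the other 3 below them. The exact two-sided permutation p for this difference was 0.151, and 0.612 after Benjamini-Hochberg adjustment over 11 such tests.

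Prlr (ENSRNOG00000057557), the prolactin receptor of the class I cytokine receptor family, was counted at 124 reads. Intact males 1, 2, 3, 5 and 6 had 8, 10, 5, 5 and 6 reads, equal to 0.567, 0.740, 0.378, 0.309 and 0.394 CPM. GDX males 1, 2, 4, 5 and 6 had 2, 5, 4, 5 and 3 reads, equal to 0.133, 0.289, 0.270, 0.355 and 0.196 CPM. GDX male 5 lay above intact male 5, and the other 4 GDX males lay below every intact male.

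The mean level of Prlr was 0.248 ± 0.0859 CPM in GDX males and 0.477 ± 0.175 CPM in intact males (SD, n = 5 each, exact two-sided permutation p = 0.0159, where 0.00794 was the smallest possible). Prlr did not pass after adjustment over the 11 exact tests (adjusted exact p = 0.175). Within the short class, 5 GDX males against 2 intact males, the exact p was 0.0952. With so few rats this p cannot be as small as in the full test. The difference in mean was −0.276 CPM there, against −0.229 CPM over all males. In females the levels were 0.403 ± 0.168 CPM (intact) and 0.389 ± 0.220 CPM (OVX), and the 2 groups overlapped (exact p = 0.894). In the other 9 exact tests, on Fshr, Tshr and Prlr, the unadjusted exact p ranged from 0.151 to 0.870.

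**Figure D1:**
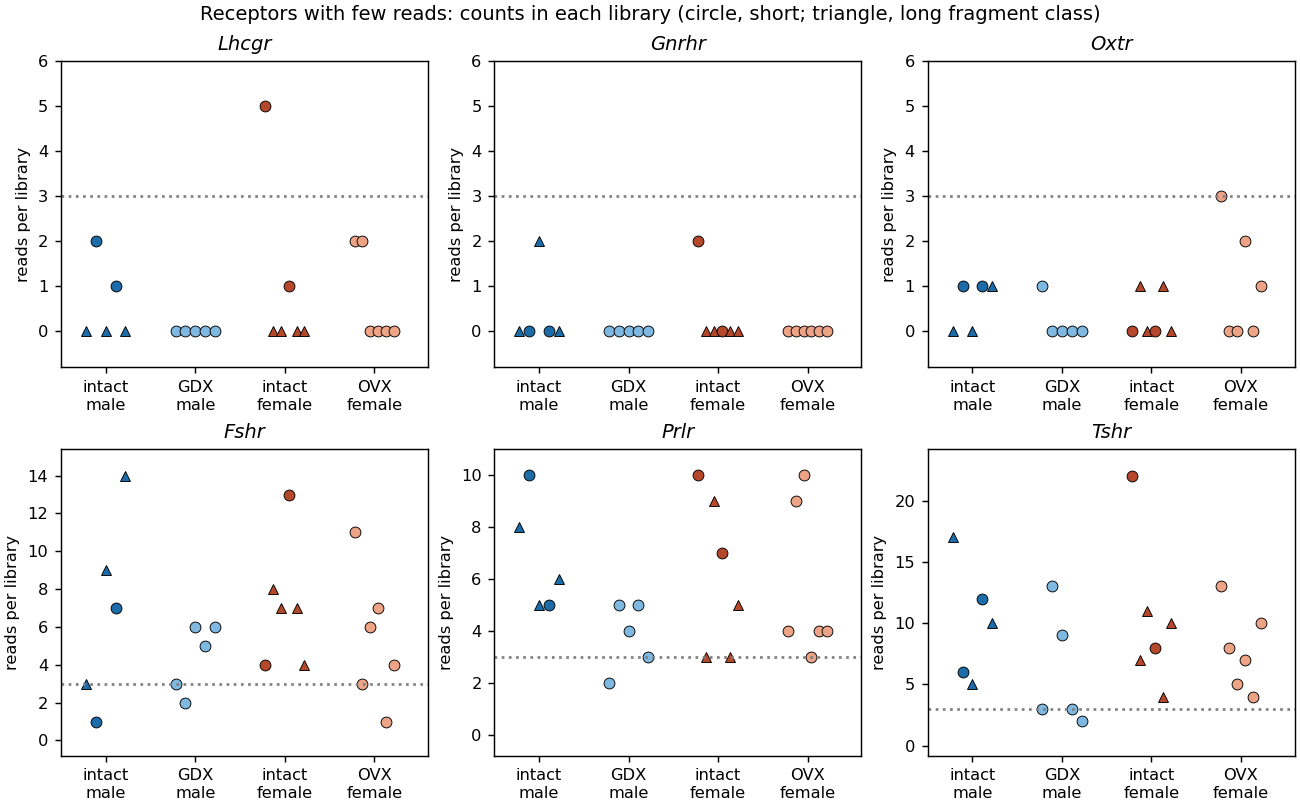
Reads per library (vertical axis) of the 6 receptors below the expression threshold, by group, 1 point per rat; circles mark short and triangles long fragment class libraries, and the dotted line marks 3 reads. Lhcgr, Gnrhr and Oxtr stay at 0 in most libraries, and Prlr in GDX males spans 2 to 5 reads against 5 to 10 in intact males.

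Lepr (ENSRNOG00000023664), the leptin receptor, also belongs to the class I cytokine receptors and signals through Jak2 and STAT proteins. Intact males 1, 2, 3, 5 and 6 had 2.62, 3.85, 3.10, 2.35 and 2.30 CPM, from 35 to 52 reads. GDX males 1, 2, 4, 5 and 6 had 2.92, 3.87, 5.13, 3.83 and 4.82 CPM, from 44 to 76 reads. GDX males 2, 4 and 6 lay above every intact male, with GDX male 2 close to intact male 2, and GDX males 1 and 5 lay within the intact range.

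The group means of Lepr were 4.11 ± 0.880 CPM in GDX males and 2.84 ± 0.645 CPM in intact males (SD, n = 5 each). The log2 fold change was 0.54 (SE 0.20, 95% interval 0.11 to 0.96), with an adjusted p of 0.112 in edgeR's quasi-likelihood test, so that Lepr did not pass the threshold of 0.1. In this comparison edgeR called 1995 of 14931 genes (13.4%), of which 1012 were higher (6.78%) and 983 lower (6.58%). The count of called genes was 1202 without GDX male 5, 796 with fragment class as a term and 440 within the short class alone. Of the 4 receptors tested over all GDX and intact males, 0 were called by edgeR, 1 (Lepr) had an unadjusted p under 0.05, and DESeq2 called 1 (Lepr, adjusted p = 0.0870). Over all genes, 3549 of 14931 (23.8%) had an unadjusted p under 0.05, so that 1 of 4 receptors at that level is near the share of all genes. DESeq2 called 2101 genes in all.

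The position of Lepr relative to the threshold depended on single rats and on the tool. The adjusted p in edgeR was 0.0508 without GDX male 1 and 0.0682 without intact male 2. With fragment class as a term the log2 fold change was 0.42 (edgeR adjusted p = 0.433), and within the short class alone it was 0.42 (edgeR adjusted p = 0.465). Over all settings the adjusted p ran from 0.0508 to 0.465. Lepr overlaps Leprot in the RefSeq annotation of the GRCr8 assembly, and reads in a stretch that both share cannot be assigned to either gene.

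**Figure D2:**
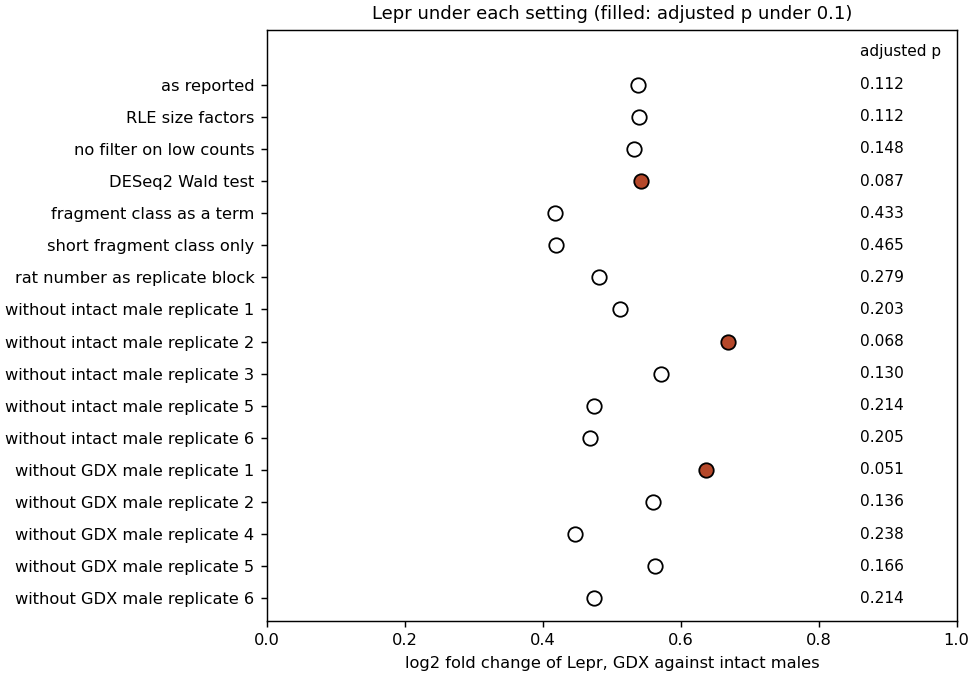
Log2 fold change of Lepr in GDX against intact males (horizontal axis) under each setting, with the adjusted p at the right; filled points mark an adjusted p under 0.1. Estimates lie between 0.42 and 0.67, and 3 of 17 settings fall under the threshold.

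In females, Lepr had a lowest, median and highest level of 3.09, 3.55 and 4.09 CPM in intact rats, and 3.03, 3.43 and 5.23 CPM in OVX rats. The groups overlapped, and OVX female 3 alone lay above the intact range. The log2 fold change was 0.06 (95% interval −0.26 to 0.38, edgeR adjusted p = 0.944). Without OVX female 3 it was −0.066.

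For the OVX comparison, edgeR called 5 of 14910 genes (0.0335%). This count ranged from 0 to 113 when single rats were left out, the highest without intact female 1. Of the 4 receptors tested, 0 were called by edgeR, 0 had an unadjusted p under 0.05 and DESeq2 called 0. Over all genes, 1516 of 14910 (10.2%) had an unadjusted p under 0.05 and DESeq2 called 174. An interaction term over all 22 libraries tested whether the response differed by sex. It was 0.48 on the log2 scale for Lepr (95% interval −0.01 to 0.98, edgeR adjusted p = 0.439). The interaction called 18 of 15562 genes (0.116%), or 1 to 275 when single rats were left out, with the highest count without GDX male 1. Here, for the 5 receptors tested, the counts were 0 by edgeR, 0 at an unadjusted p under 0.05 and 0 by DESeq2. Among all genes, 1810 of 15562 (11.6%) had an unadjusted p under 0.05 for the interaction and DESeq2 called 243.

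Ghr (ENSRNOG00000015654), the growth hormone receptor, signals through Jak2 and leads to expression of insulin-like growth factor 1. Intact males 1, 2, 3, 5 and 6 had 6.87, 5.55, 5.44, 5.69 and 7.02 CPM, and GDX males 1, 2, 4, 5 and 6 had 5.24, 7.04, 7.15, 9.43 and 8.60 CPM. The lowest, median and highest levels were 6.41, 7.94 and 10.4 CPM in intact females, and 4.49, 7.52 and 8.97 CPM in OVX females. GDX male 1 was below every intact male and the other 4 GDX males were above them. Intact males 1 and 6 overlapped intact female 1, and the other 3 intact males lay below all 6 intact females.

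Intact males averaged 6.11 ± 0.767 CPM of Ghr (SD, n = 5) and intact females 8.10 ± 1.31 CPM (n = 6). The log2 difference was −0.40 (SE 0.13, 95% interval −0.66 to −0.13), and it did not pass the threshold (edgeR adjusted p = 0.130). edgeR called 599 of 14937 genes between intact males and intact females (4.01%), with 216 higher in males (1.45%) and 383 lower (2.56%). The count was 352 without intact male 1, 385 without intact male 5 and 628 with fragment class as a term. Within the short class alone, with 2 intact males and 2 intact females, it was 34. Of the 5 receptors tested, 0 were called by edgeR, 1 (Ghr) had an unadjusted p under 0.05, and DESeq2 called 1 (Ghr, adjusted p = 0.0933). Over all genes, 2317 of 14937 (15.5%) had an unadjusted p under 0.05, so that 1 of 5 receptors at that level is near the share of all genes. DESeq2 called 820 genes in all. Without intact female 1 the edgeR adjusted p for Ghr was 0.0616. It ranged up to 0.536 over all its settings, within the short class alone. The log2 difference of Ghr ran from −0.46 to −0.31 leaving out each rat. Over the other settings, the short class included, it ran from −0.40 to −0.38.

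After castration the mean level of Ghr was 7.49 ± 1.61 CPM (n = 5). The log2 fold change against intact males was 0.29 (95% interval −0.04 to 0.62, edgeR adjusted p = 0.268). Single rats weighed on this value in both directions. Without GDX male 1 it was 0.39 (edgeR adjusted p = 0.0809), and without GDX male 5 it was 0.20 (edgeR adjusted p = 0.521), the lowest and highest adjusted p over its settings. OVX females averaged 7.34 ± 1.60 CPM (n = 6), with a log2 fold change of −0.13 against intact females (95% interval −0.44 to 0.18, edgeR adjusted p = 0.834).

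Between the gonadectomized groups, whose libraries were all of the short class, Ghr differed by 0.03 on the log2 scale (95% interval −0.33 to 0.39, edgeR adjusted p = 0.976). For this comparison edgeR called 35 of 15084 genes (0.232%), and 23 without OVX female 1. Of the 4 receptors tested, 0 were called by edgeR, 0 had an unadjusted p under 0.05 and DESeq2 called 0. Among all genes, 1413 of 15084 (9.37%) had an unadjusted p under 0.05 and DESeq2 called 130. The interaction for Ghr was 0.42 (95% interval −0.03 to 0.88, edgeR adjusted p = 0.467). The order of mean levels was intact female, GDX male, OVX female and intact male, and no neighbouring pair in that order differed by more than the larger SD of the pair.

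Avpr1a (ENSRNOG00000004400) is the V1a vasopressin receptor, which couples to phospholipase C. Intact males 1, 2, 3, 5 and 6 had 3.19, 2.66, 2.11, 2.97 and 3.54 CPM, and GDX males 1, 2, 4, 5 and 6 had 2.92, 3.40, 2.50, 4.11 and 2.67 CPM. The lowest, median and highest levels were 2.50, 3.22 and 4.54 CPM in intact females and 2.72, 3.79 and 4.62 CPM in OVX females. All 4 groups overlapped. The log2 fold change was 0.10 after castration (95% interval −0.31 to 0.52) and 0.15 after ovariectomy (95% interval −0.23 to 0.52). The edgeR adjusted p was 0.796 and 0.844.

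Oxtr (ENSRNOG00000005806), the oxytocin receptor and a relative of Avpr1a among G protein-coupled receptors, had 12 reads in all. Males had 3 reads (intact) and 1 read (GDX), females had 2 (intact) and 6 (OVX), and no library had more than 3. These counts do not allow a comparison between groups.

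Insr (ENSRNOG00000029986), the insulin receptor tyrosine kinase, was the receptor measured with the most reads, at 540 to 852 per library. Intact males 1, 2, 3, 5 and 6 had 44.8, 48.8, 45.7, 43.5 and 48.7 CPM, and GDX males 1, 2, 4, 5 and 6 had 51.0, 45.7, 41.5, 41.4 and 40.3 CPM. In females the lowest, median and highest levels were 39.4, 45.0 and 49.9 CPM (intact) and 41.0, 47.6 and 52.3 CPM (OVX). The ranges overlapped in all 4 groups, and GDX male 1 had the highest level among males while GDX males 4, 5 and 6 had the lowest.

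The fold of Insr in GDX over intact males was 0.951 (95% interval 0.862 to 1.05), and its edgeR adjusted p was 0.551. The log2 difference was 0.08 for OVX against intact females (95% interval −0.06 to 0.21) and 0.05 for intact males against intact females (95% interval −0.07 to 0.17). These intervals were the narrowest among the receptors tested. Insr also overlaps 2 long noncoding genes in the RefSeq annotation, so that reads shared with them could be included.

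**Figure D3:**
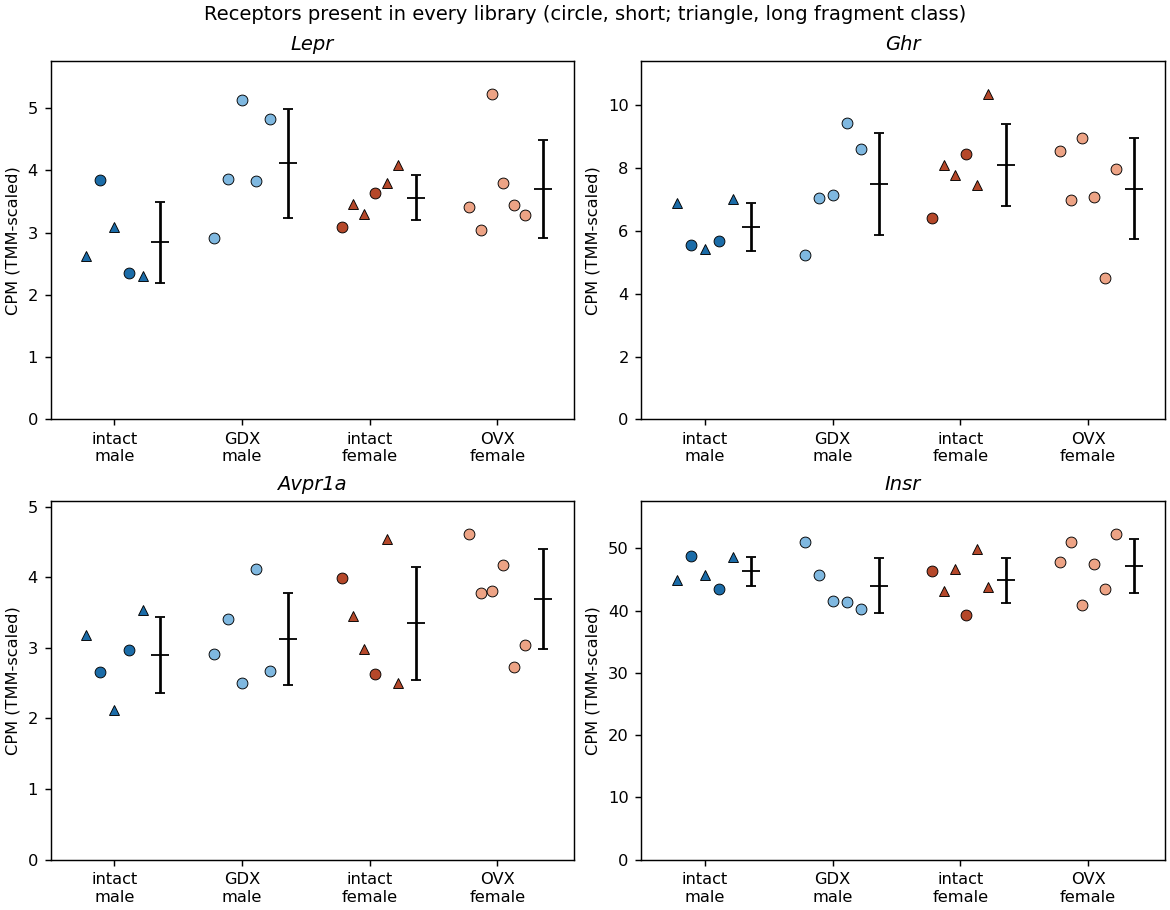
CPM, TMM-scaled (vertical axis), of the 4 receptors that reached 1 CPM in every library, by group, 1 point per rat. The bar beside each group is its mean ± SD, and circles mark short and triangles long fragment class libraries. Lepr reaches 5.13 CPM in GDX males against 3.85 CPM in intact males, Ghr is lowest on average in intact males, and all 4 groups overlap for Avpr1a and Insr.

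**Figure D4:**
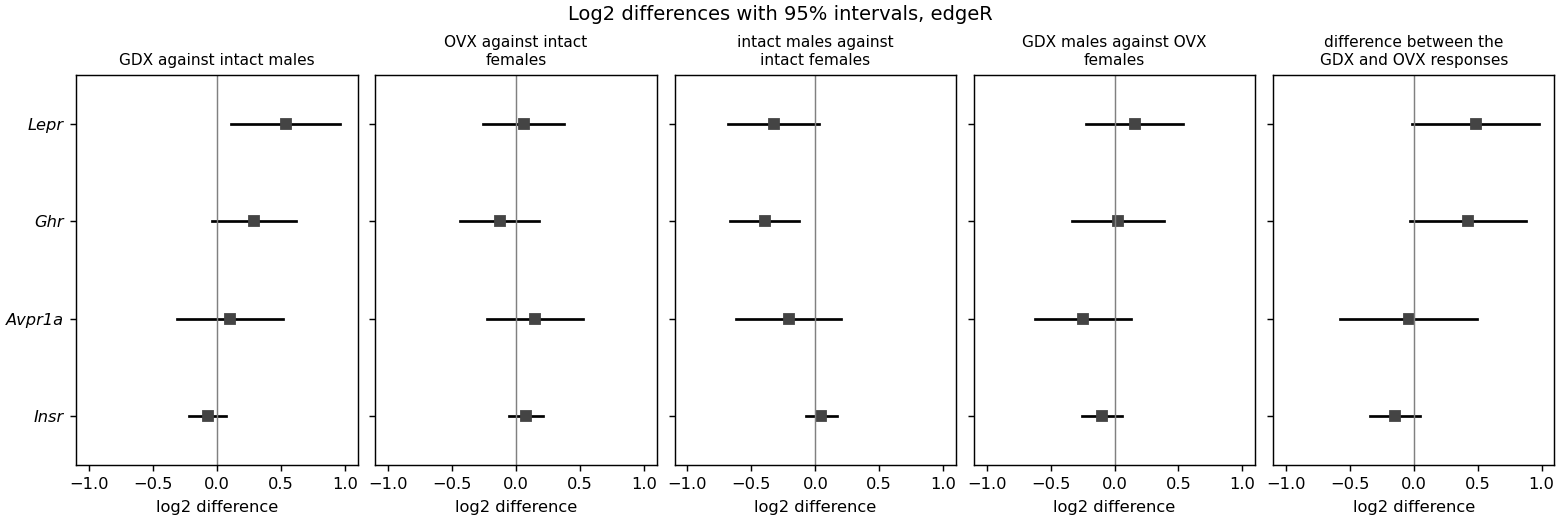
Log2 differences (squares, horizontal axis) and 95% intervals (lines) of the 4 receptors in each of the 5 comparisons, from edgeR. The interval does not include 0 for Lepr in GDX against intact males (0.11 to 0.96) and for Ghr in intact males against intact females (−0.66 to −0.13); both missed the adjusted threshold.

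The receptors that passed the filter had a median log2 difference of 0.20 in the castration comparison, beside 0.00 over all genes tested. The medians were 0.07 after ovariectomy, −0.21 between intact males and females, −0.04 between GDX and OVX rats and −0.04 for the interaction. Each rests on 4 or 5 genes. The comparisons share groups and are not independent of each other.

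Across the 22 libraries, with group means subtracted from log2 CPM, the receptors were compared with each other. Pearson's r between pairs of the 5 receptors kept by the filter over all libraries ran from −0.492 (Lepr and Insr) to 0.318 (Ghr and Lepr). The libraries differed in depth and fragment class, which the values do not take out, and these values are descriptive. Out of 15561 genes, the 3 most like Lepr were LOC108348136 (r = 0.825), Ufm1 (0.800) and Dcn (0.799), and those most like Ghr were Htra3 (0.834), AC136661.1 (0.808) and Angptl2 (0.771). Dcn encodes the matrix proteoglycan decorin and stood in the list of meninges and fibroblast markers. For Insr they were Prpf40b (0.897), Bahcc1 (0.876) and Hectd4 (0.850), and for Avpr1a Mrpl17 (0.847), Fbrs (0.734) and Prrc1 (0.720).

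Markers of meninges and fibroblasts differed between groups. Their summed level over 10 genes was 202, 138, 141, 93.5 and 70.7 CPM in intact males 1, 2, 3, 5 and 6, and 188, 304, 438, 586 and 471 CPM in GDX males 1, 2, 4, 5 and 6. It had a lowest, median and highest value of 145, 338 and 469 CPM in intact females and 285, 374 and 503 CPM in OVX females. GDX male 1 lay within the range of intact males and the other 4 GDX males lay above it, while intact and OVX females overlapped. Col1a1 had the highest CPM of these genes in intact males, GDX males and OVX females, Col3a1 in intact females, and none of the 10 genes was at 0 in any group.

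Of the 9 meninges and fibroblast markers tested, 9 rose in GDX males (median log2 fold change 1.60), where 13.4% of all genes were called. In OVX females 0 were called, beside 0.0335% of all genes, and 0 had an unadjusted p under 0.05, beside 10.2%. Their median log2 fold change in OVX females was 0.31, with 9 of 9 values positive. In intact males 7 were lower than in intact females, where 4.01% of all genes were called. The interaction had a median of 1.30 over these 9 genes, of which 0 were called by edgeR and 8 had an unadjusted p under 0.05. Over all genes these shares were 0.116% and 11.6%. Endothelial markers, with Flt1 the most abundant, summed to 140 ± 17.5 CPM in intact males and 207 ± 19.6 CPM in GDX males (SD, n = 5 each), and 8 of 9 rose. After ovariectomy 1 of 9 rose (Kdr, log2 fold change 0.77, edgeR adjusted p = 0.0966), and 8 of 9 had an unadjusted p under 0.05. The endothelial sums in females were 163 ± 37.9 CPM (intact) and 227 ± 30.8 CPM (OVX; n = 6 each). The median log2 fold change of the endothelial list was 0.49 in both sexes, and for its interaction edgeR called 0 of 9 genes and 1 had an unadjusted p under 0.05. Between intact males and intact females, 1 of 9 endothelial genes was called, lower in males. The part of these tissue components in the levels of Lepr and Ghr was not tested. In bulk tissue, fewer cells of a type and less RNA per cell cannot be told apart.

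**Figure D5:**
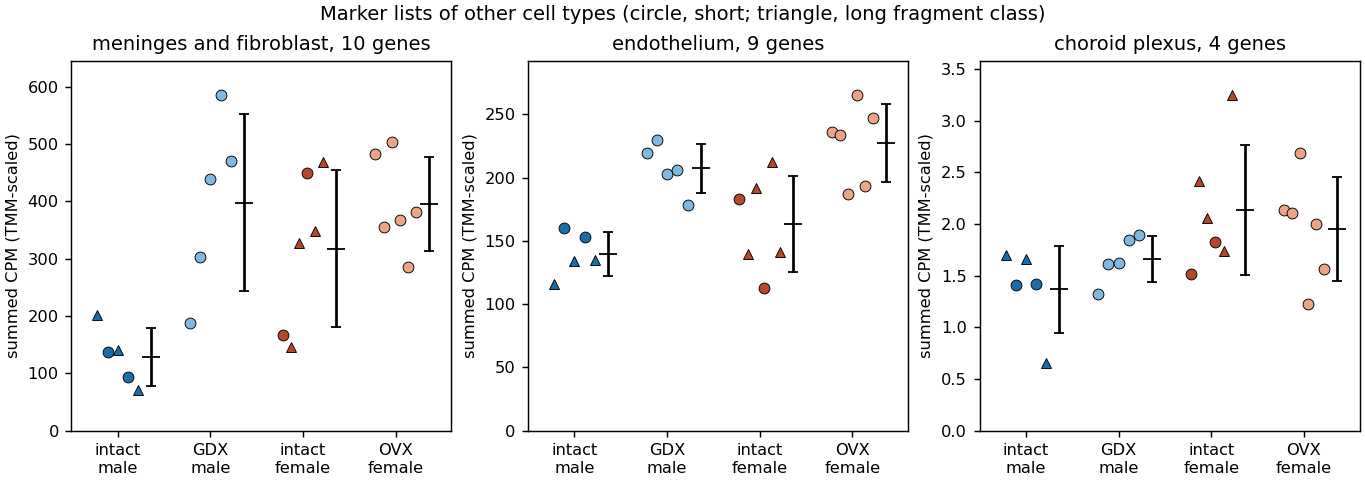
Summed CPM, TMM-scaled (vertical axis), of marker genes of meninges and fibroblasts, endothelium and choroid plexus, by group, 1 point per rat; the bar beside each group is its mean ± SD, circles mark short and triangles long fragment class libraries. The meninges and fibroblast sum is 70.7 to 202 CPM in intact males and 188 to 586 CPM in GDX males.

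The tissue label was matched by its markers. The motor neuron list, led by Prph, summed to 449 ± 119 CPM in intact males, and all 7 of its genes had reads in every library. Pituitary markers, led by Pomc, summed to 2.11 ± 0.394 CPM in intact males and 2.74 ± 1.09 CPM in GDX males (SD, n = 5 each). Choroid plexus markers summed to 1.37 ± 0.421 CPM and 1.66 ± 0.224 CPM in the same groups.

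Markers of other cell types were also compared. After castration 13.4% of all genes were called. Of the marker genes tested, 4 of 8 rose for pericytes and smooth muscle (most abundant Myh11) and 1 of 7 for oligodendrocytes (Mbp). For astrocytes (Gfap) 2 of 7 rose and 1 fell. For neurons (Nefm) 3 of 7 fell (median log2 fold change −0.23), and for motor neurons (Prph) 1 of 7 fell (median −0.27). For microglia (Csf1r), ependyma (Dnah12), choroid plexus and pituitary, edgeR called 0 of 7, 0 of 4, 0 of 1 and 0 of 2 genes, and 1, 1, 0 and 0 had an unadjusted p under 0.05.

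After ovariectomy, where 0.0335% of all genes were called, edgeR called 0 genes of these 9 lists. The medians were −0.20 for neurons and −0.39 for motor neurons, and 5 of 7 genes of each had an unadjusted p under 0.05, and after castration 5 of 7 and 2 of 7 did. Over all genes this share was 10.2% after ovariectomy and 23.8% after castration. The same count was 3 of 8 for pericytes and smooth muscle, 3 of 7 for astrocytes, 1 of 7 for oligodendrocytes and 2 of 7 for microglia, and 0 for ependyma, choroid plexus and pituitary. For the interaction edgeR called 0 genes of the neuron and motor neuron lists, and 2 and 0 had an unadjusted p under 0.05. Between intact males and intact females, where 4.01% of all genes were called, 1 of 7 neuron genes was higher in males.

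Transcripts of the hormones themselves were scarce in the tissue. Fshb, Prl, Oxt and Ins1 had 0 reads in 22 libraries. Lep and Ins2 had 1 read each, Gh1 had 2, Gphb5 5, Cga 11, Tshb 17, Gpha2 35 and Avp 85 reads. Lhb had 280 reads and the 2 rows named Gnrh1 had 10 and 199 reads. Lhb, Gnrh1, Tshb, Gpha2 and Ins2 each overlap another gene in the RefSeq annotation, so their reads cannot be assigned with certainty. For the castration comparison 2 ligand rows were tested, of which 0 were called by edgeR and 0 had an unadjusted p under 0.05. Over all genes these shares were 13.4% and 23.8%.

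Among related receptors, Trhr (8.66 to 14.9 CPM), Crhr1 (2.66 to 5.44 CPM), Igf1r (42.8 to 55.3 CPM), Igf2r (73.3 to 88.0 CPM) and Adipor1 (85.6 to 98.4 CPM) reached 1 CPM in 22 of 22 libraries. By contrast, the vasopressin receptors Avpr1b and Avpr2 had 13 and 5 reads in all. Of 15 related receptors tested after castration, 1 rose and 0 fell (6.67%), below the 13.4% of all genes called. This was Leprot, the gene that overlaps Lepr, at 19.5 ± 1.62 CPM in GDX males and 16.5 ± 1.69 CPM in intact males (SD, n = 5 each; log2 fold change 0.24, edgeR adjusted p = 0.0898). Between intact males and females 1 of 15 was called, beside 4.01% of all genes. This was the adiponectin receptor Adipor2, lower in males (log2 difference −0.28, edgeR adjusted p = 0.0785).

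Of 16 genes of JAK-STAT signalling tested after castration, 1 rose and 0 fell (6.25%), also below the 13.4% of all genes called. Jak2, the kinase that the leptin, growth hormone and prolactin receptors engage, was at 34.5 ± 2.51 CPM in GDX males and 29.3 ± 1.51 CPM in intact males (SD, n = 5 each; log2 fold change 0.24, edgeR adjusted p = 0.0273). Tyk2, a kinase of the same family, was higher in intact males than in intact females (0.31 on the log2 scale, edgeR adjusted p = 0.0321).

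Of 28 genes of insulin signalling tested after castration, 1 rose and 2 fell (10.7%), below the 13.4% of all genes called. Foxo1, a transcription factor restrained by insulin, rose (log2 fold change 0.20, edgeR adjusted p = 0.0984), and the kinases Gsk3b (−0.12, edgeR adjusted p = 0.0938) and Mtor (−0.19, edgeR adjusted p = 0.0586) fell. Pdpk1, the kinase that phosphorylates Akt, was higher in intact males than in intact females (0.16, edgeR adjusted p = 0.0739).

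Of 23 G protein signalling genes tested after castration (Gnas counted in 2 entries), 3 rose and 4 fell, or 30.4%, beside 13.4% of all genes called. This share was not tested against that of all genes. The inhibitory G protein subunits Gnai2 (0.27, edgeR adjusted p = 0.00772) and Gnai3 (0.28, 0.00951) and the transcription factor Creb1 (0.30, 0.0185) were higher. Adenylyl cyclase Adcy3 (−0.34, edgeR adjusted p = 0.0194), phospholipase Plcb1 (−0.25, 0.00731), the kinase subunit Prkaca (−0.16, 0.0476) and arrestin Arrb1 (−0.19, 0.0187) were lower. Gnai2 was also lower in intact males than in intact females (−0.14, edgeR adjusted p = 0.0785).

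These 12 signalling genes kept their direction with fragment class as a term, and 5 of the 12 were still called. The edgeR adjusted p of the 12 then ran from 0.0547 to 0.214. Leaving out GDX male 4 or GDX male 5 left 7 of 12 called. Within the short class alone 3 of 12 were called, namely Gnai2, Gnai3 and Arrb1. Jak2 (edgeR adjusted p = 0.140) and Leprot (0.214) were not called with the class term. Of these 4 lists and the ligands, 0 genes were called by edgeR after ovariectomy, between GDX and OVX rats or for the interaction. At an unadjusted p under 0.05, JAK-STAT signalling had 5 of 16 genes after ovariectomy, insulin signalling 3 of 28, G protein signalling 4 of 23 and related receptors 0 of 15, beside 10.2% of all genes. In that order the counts were 1, 1, 4 and 2 between GDX and OVX rats, beside 9.37% of all genes, and 3, 1, 3 and 1 for the interaction (with 16 related receptors tested), beside 11.6%. The ligands had 0 in each. Between intact males and females, 1 gene of each of these 4 lists was called, beside 4.01% of all genes. Of the 4 genes named between intact males and females, 4 were called with fragment class as a term and 0 within the short class alone (edgeR adjusted p from 0.356 to 0.642). Leaving out intact male 1, 2 or 6 or intact female 3 left 1 of 4 called, and leaving out intact male 3 or 5 or intact female 4, 5 or 6 left 2.

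Windows of 250 bases before the transcription start were taken from RefSeq (GRCr8, a later assembly than that of the counts). Of the 10 receptors 9 had windows, 10 windows in all, and Tshr was missing. On either strand, GGTCA, the core of the estrogen receptor element, was in 3 of 10 windows (Lhcgr, Fshr and Oxtr), beside 35.4% of all 33469 windows. AGAACA, the core of the androgen receptor element, was in 2 of 10 (Ghr and the second window of Prlr), beside 17.5%. TTCNNNGAA, a STAT site, was in 1 of 10 (Prlr), beside 7.67%. The windows of Lepr, Ghr and Prlr are shown because these 3 receptors had an unadjusted p under 0.05 in a comparison; capitals mark AGAACA or its complement, and TTCNNNGAA. The window of Lepr and the first of Prlr held none of these motifs. A match describes the letters only.
Lepr, chr5:121409485-121409734, plus strand: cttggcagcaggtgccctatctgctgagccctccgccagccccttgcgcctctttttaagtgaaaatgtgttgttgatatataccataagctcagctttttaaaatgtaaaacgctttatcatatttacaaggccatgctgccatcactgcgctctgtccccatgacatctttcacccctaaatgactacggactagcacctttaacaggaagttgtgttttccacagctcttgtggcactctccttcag
Ghr, chr2:54432076-54432325, minus strand: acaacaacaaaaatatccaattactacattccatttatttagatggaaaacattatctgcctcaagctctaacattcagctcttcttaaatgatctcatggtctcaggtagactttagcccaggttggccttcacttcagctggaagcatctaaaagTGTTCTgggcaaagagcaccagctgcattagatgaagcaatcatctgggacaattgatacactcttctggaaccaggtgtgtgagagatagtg
Prlr first window, chr2:60861515-60861764, plus strand: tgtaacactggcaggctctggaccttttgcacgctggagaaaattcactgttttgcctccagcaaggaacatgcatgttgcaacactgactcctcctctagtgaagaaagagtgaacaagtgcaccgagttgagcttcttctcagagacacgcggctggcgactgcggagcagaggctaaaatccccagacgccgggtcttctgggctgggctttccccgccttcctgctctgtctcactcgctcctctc
Prlr second window, chr2:60909409-60909658, plus strand: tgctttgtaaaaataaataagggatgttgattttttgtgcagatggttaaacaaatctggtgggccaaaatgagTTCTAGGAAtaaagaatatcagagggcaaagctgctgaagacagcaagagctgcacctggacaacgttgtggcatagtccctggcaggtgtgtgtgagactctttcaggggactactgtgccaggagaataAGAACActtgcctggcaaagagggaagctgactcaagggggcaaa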

How the data were processed

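Raw read counts per gene for 22 libraries were used as deposited. The authors trimmed and aligned the reads to Rnor_6.0 and counted them with Subread; the submitters' processing notes also name FastQC, edgeR and TopHat2 2.0.13, whereas the methods name Hisat2. The labels name a TruSeq library and the methods a stranded total RNA kit. Strand and multimapping settings of the counting are not given in the sources used here.

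Here, genes were filtered with filterByExpr by group, scaled by TMM and tested with edgeR 4.0.16 (glmQLFit and glmQLFTest, R 4.3.3), fitting only the groups compared, or all 4 groups for the interaction. P-values were adjusted by Benjamini-Hochberg over all genes tested and called under 0.1. The SE was taken from the log2 fold change and its F statistic. Members below the filter with reads in most libraries were compared by exact two-sided permutation of mean CPM. Log2 CPM used a prior count of 2. Alternatives were RLE size factors, no filter, DESeq2 1.42.0, a call level of 0.05, fragment class, the rat number as a block and leaving out each rat.

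Named genes were the 10 receptors, called genes of the signalling lists, levels of ligands and related receptors, the 3 genes most like each of Lepr, Ghr, Insr and Avpr1a, and the most abundant gene of marker lists, of which 1 list is not reported. The receptors and lists were chosen with earlier results of these data known. The code was tested on simulated data. The 22 libraries were distinct (r = 0.971 to 0.987).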

Additional observations from a re-analysis of the deposited data

Results flagged for a closer look

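Within each group, a rat was singled out where its gap to the nearest other rat was large against the range of the group (Dixon's criterion at 95%). Of 37 groups of receptor values searched, 5 held such a rat, where chance gives about 1 in 20 for continuous values. That rate does not apply to Gnrhr and Oxtr, since a group in which a single rat has reads meets the criterion by construction. In 4 of the 5 the values were 5 reads or fewer. Lhcgr was 0.281 CPM (5 reads) in intact female 1. Gnrhr was 0.151 CPM (2 reads) in intact male 3 and 0.113 CPM (2 reads) in intact female 1, with 0 reads in the other rats of those groups. Oxtr was 0.0663 CPM (1 read) in GDX male 1. Lepr was 5.23 CPM (70 reads) in OVX female 3, against 3.03 to 3.79 CPM in the other 5 OVX females. Causes were not tested.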

How the results depend on the processing

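Of the settings tried for fold changes of the receptors, 394 kept the direction and the side of the threshold, 16 reversed the direction and 6 brought the adjusted p under 0.1. Receptors called changed from 0 to 1 with DESeq2 in GDX against intact males and in intact males against intact females. Leaving out 1 rat gave 0 to 2 receptors in the former (2 without GDX male 1) and 0 to 1 in the latter. Receptors expressed were 4, and 7 at 1 read.

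Genes called in GDX against intact males were 1264 at an adjusted p under 0.05, 796 with fragment class as a term, 440 in the short class alone and 1202 to 2446 leaving out each rat. For OVX they were 1 at 0.05, 11 with no filter, 174 with DESeq2, 3 with class as a term and 0 to 113 leaving out each rat, the highest without intact female 1. For intact males against intact females they were 333 at 0.05, 628 with class as a term and 820 with DESeq2. In the short class alone, with 2 intact males and 2 intact females, 34 were called. Leaving out each rat gave 352 to 777. In GDX against OVX 130 were called with DESeq2 and 23 to 44 leaving out each rat. For the interaction they were 2 at 0.05, 33 with no filter, 243 with DESeq2, 6 with class as a term, 5 in the short class and 1 to 275 leaving out each rat, the highest without GDX male 1. The short class alone has fewer rats; other causes were not tested.

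With the rat number as a replicate block, genes called were 1274 (GDX), 0 (OVX), 255 (intact males against intact females) and 0 (interaction), and 0 receptors were called. The numbers did not pair the rats: correlations of same-numbered rats ran from −0.114 to 0.0626, 0 were above 0.1, and 0 rats matched best with their own number.

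Directions reversed in the short class for Tshr between intact males and females (log2 −0.62) and in the interaction (0.20), and, in settings chosen after seeing the data, for mean CPM of Fshr after castration (0.0396) and Prlr between intact males and females (−0.0118). Leaving out each rat, log2 values that changed sign ran from −0.011 to 0.19 for Avpr1a after castration, −0.066 to 0.11 for Lepr after ovariectomy, −0.26 to 0.17 for Tshr between intact males and females (6 of 11 rats, as Tshr was below the filter without the others), −0.073 to 0.13 for Ghr between GDX and OVX, and −0.16 to 0.042 for the Avpr1a interaction. Chosen after seeing the data, the same for CPM differences gave −0.0855 to 0.0305 for Prlr after ovariectomy, −0.139 to 0.0723 for Fshr between intact males and females and −0.101 to 0.00965 between GDX and OVX. Also chosen after seeing the data, long was compared with short class among the 11 intact rats, with sex as a term. In it edgeR called 1 of 15147 genes. The log2 difference was −0.03 for Lepr (95% interval −0.41 to 0.35) and 0.19 for Ghr (95% interval −0.08 to 0.46). All GDX and OVX libraries were short, so class and surgery are partly confounded. Depth limits Lhcgr, Gnrhr and Oxtr to detection, and Fshr, Prlr and Tshr to large differences.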
